A study of Mus musculus with 12 samples.

Results

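The genes described here encode the enzymes, the helper protein and 1 receptor through which macrophages make and sense prostaglandins, thromboxane and leukotrienes. They were listed by name, and the list has 10 members among the 38887 genes of each deposited table, namely Pla2g4a, Ptgs1, Ptgs2, Ptges, Hpgds, Tbxas1, Alox5, Alox5ap, Ltc4s and Ptger1. All 10 were among the 12846 genes that passed the filter on low counts. Every member except Ptger1 lay above the cutoff in each library, and Ptger1 did so in 2 of the 3 libraries of KO M2 macrophages and in all libraries of the remaining groups.

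Messenger RNA was sequenced from bone marrow-derived macrophages (BMMs) of mice, differentiated for 6 days with 50 ng/ml M-CSF, the growth factor that drives macrophage formation. In IGF2BP2 KO mice, loxP sites surround exons 4 and 5 of Igf2bp2, which encodes an RNA-binding protein, and Cre recombinase is expressed from the Lyz2 locus (B6.Cg-Igf2bp2tm1.1Thor/J crossed with 29P2-Lyz2tm1(cre)Ifo/J). WT mice were littermates of matched sex and age with no floxed allele, of which some had Cre and some did not, and which of the sequenced WT mice had Cre is not given in the sources used here. BMMs of each genotype were left untreated (M0) or received 20 ng/ml IL-4 for 8 h (M2), with n = 3 mice per group and 12 libraries in all.

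The count total of a library lay between 24942666 and 29832430 for WT M0, between 26568719 and 37054582 for KO M0, between 20011792 and 22744704 for WT M2 and between 27347077 and 39632770 for KO M2. Igf2bp2 itself, counted over the whole gene including the exons that remain, lay at 76.5 to 118 CPM (counts scaled to a common library total) in WT M0 and 84.9 to 95.9 CPM in KO M0, and at 178 to 233 against 129 to 146 CPM in M2. By Western blot and qPCR, the study found IGF2BP2 protein and mRNA nearly absent from KO BMMs. Lyz2, the site of the Cre insertion, lay at 4185 to 10544 CPM over the 6 WT libraries and at 11 to 33.2 CPM over the 6 KO libraries, so the KO libraries also differ from WT in the locus that carries Cre. All 7 macrophage markers were detected, with a summed TPM of 3142 to 4194, and the 6 lymphocyte and the 5 dendritic cell markers summed to at most 0.12 and 1.07 TPM. Markers of mast cells, which are rich in leukotriene and prostaglandin D2 enzymes, summed to at most 0.65 TPM, with Cpa3, Fcer1a, Mcpt4 and Tpsb2 at 0 in every library. In bulk RNA, fewer cells of a type and less RNA per cell cannot be told apart.

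Eicosanoids are made from arachidonic acid, which cytosolic phospholipase A2 (Pla2g4a) releases from membranes. The cyclooxygenases COX-1 (Ptgs1) and COX-2 (Ptgs2) convert it to prostaglandin H2, from which terminal synthases form prostaglandin E2 (Ptges), prostaglandin D2 (Hpgds) or thromboxane A2 (Tbxas1). In the other branch, 5-lipoxygenase (Alox5), aided by its activating protein FLAP (Alox5ap), forms leukotriene A4, which leukotriene C4 synthase (Ltc4s) joins to glutathione. Ptger1 encodes EP1, a receptor for prostaglandin E2. Macrophages are a main source of these lipids in inflamed tissue, and IL-4 acts through the transcription factor STAT6.

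On GRCm38, Pla2g4a (chromosome 1, 149829618 to 149961290, minus strand) and Ptgs2 (chromosome 1, 150100031 to 150108227, plus strand) are neighbours whose starts lie 138741 bases apart and face away from each other. The list's other members on chromosomes shared with a second one are Ptgs1 (chromosome 2, 36230426 to 36252272, plus strand) with Ptges (chromosome 2, 30889471 to 30929863, minus strand), and Hpgds (chromosome 6, 65117293 to 65144908, minus strand) with Tbxas1 (chromosome 6, 38875404 to 39084585, plus strand) and Alox5 (chromosome 6, 116410077 to 116461178, minus strand). Alox5ap lies on chromosome 5 (149264767 to 149288153, plus strand), Ltc4s on chromosome 11 (50236461 to 50238616, minus strand) and Ptger1 on chromosome 8 (83666678 to 83672753, plus strand). Tbxas1 overlaps Hipk2 on the opposite strand.

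RefSeq promoters of 8 members (GRCm38.p6, 250 bases before to 50 after a start) were searched on both strands for a STAT6-type motif, in which any 4 bases separate TTC from GAA, and for a PU.1-type motif, GAGGAAGT, since PU.1 is the lineage factor of macrophages. The first was found in 6.95% of all 32851 promoters and in those of Ptges and Tbxas1, and the second in 3.2% of all and in those of Ptgs1 and Hpgds. These stretches are shown because the first pair comprises a gene that IL-4 lowered and one that it raised, as described further on, and capitals mark the motif. The Ptges stretch is chr2:30903475-30903504 (minus strand), the Tbxas1 stretch chr6:38918855-38918884 (plus strand), the Ptgs1 stretch chr2:36230391-36230420 (plus strand) and the Hpgds stretch chr6:65144761-65144790 (minus strand). The RefSeq starts searched for Ptges and Tbxas1 lie inside the gene bounds given above, downstream of the outermost start of the gene in the annotation used for positions.
Ptges: gtctgaggctTTCAAAAGAAcaatggtcct
Tbxas1: ctgctcctgtTTCTGGGGAAgctaacataa
Ptgs1: aggctggagcaGAGGAAGTtggcggtcagc
Hpgds: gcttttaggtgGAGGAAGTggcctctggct
These are matches of letters in a short window, and the data hold no measurement of binding at them. Further motifs were searched in the same windows, and TGANTCA (AP-1, 7.81% of all promoters) was found in Tbxas1, TATAAA (13.6%) in Pla2g4a (at a start inside the gene bounds) and Tbxas1, CACGTG (E-box, 7.15%) in Ptgs2, and TGACGTCA (CRE, 1.79%) in no member. A shorter STAT-type spacing, TTCNNNGAA (8.3%), was also in no member.

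Levels of different genes were compared as TPM, which are scaled by transcript length. FLAP mRNA was the most abundant of the list in all 4 groups, at 773 to 1034 TPM in WT M0 and 471 to 626 TPM in WT M2. Its partner enzyme Alox5 lay at 1.28 to 4.24 and 0.63 to 3.33 TPM in the same groups, so the helper protein's mRNA was far above that of the enzyme it serves. Next in WT M0 were Tbxas1 at 111 to 153, Hpgds at 100 to 130, Ptgs1 at 82.5 to 99.9, Pla2g4a at 56.2 to 65.7 and Ptges at 35.5 to 38.3 TPM. The low end was formed by Ltc4s at 13.7 to 26.7, Ptgs2 at 4.76 to 5.28 and Ptger1 at 0.53 to 2.79 TPM. Neighbours in this order had separate ranges except Tbxas1 with Hpgds and Alox5 with Ptger1.

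In WT M2 macrophages Tbxas1 (322 to 357 TPM) and Ptgs1 (321 to 337 TPM) had overlapping ranges below FLAP, and Ptges had dropped to 1.79 to 2.26 TPM, where its range met those of Alox5 and Ptger1. In KO the order differed in part, as Ptgs1 and Hpgds overlapped in M0 (104 to 122 and 109 to 113 TPM) and Ptgs1 (327 to 397 TPM) lay above Tbxas1 (304 to 310 TPM) in M2. In KO M0, Alox5 (3.46 to 6.41 TPM) lay above Ptgs2 (2.59 to 3.04 TPM), whereas in WT M0 Ptgs2 was the higher of the pair.

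**Figure D1:**
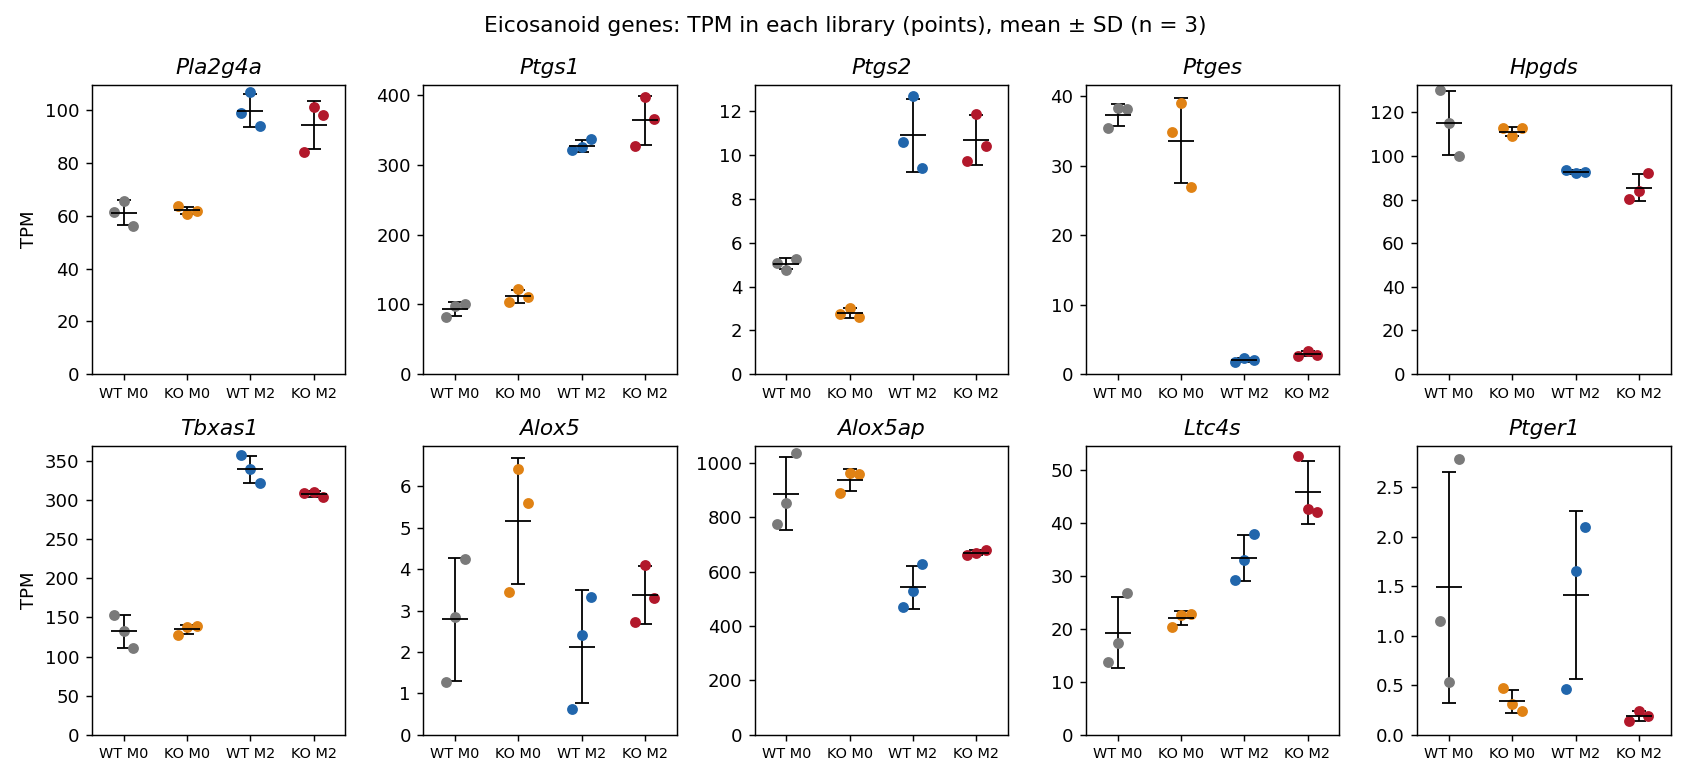
TPM (linear axes from 0) of the 10 eicosanoid genes in WT and KO macrophages without (M0) and with IL-4 (M2), with 1 point per library and bars for the mean ± SD (n = 3). Ptgs2 in M0 separates the genotypes (4.76 to 5.28 in WT, 2.59 to 3.04 TPM in KO), Ptges falls to at most 3.34 TPM in M2, and Alox5, Ltc4s and Ptger1 vary widely among WT mice.

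IL-4 changed 8 of the 10 genes in WT BMMs, raising Pla2g4a, Ptgs1, Ptgs2, Tbxas1 and Ltc4s and lowering Ptges, Hpgds and Alox5ap. The changes were thus divided within each branch, with both cyclooxygenases and thromboxane synthase higher and prostaglandin E synthase lower. The same 8 genes passed in the same direction in KO BMMs. In the edgeR fit 50% of all genes tested were called for IL-4 in WT (24.9% higher, 25.1% lower) and 52.8% in KO (26.8% higher, 26% lower), so a large share called is usual for this comparison. Likewise the CPM of M0 and M2 did not overlap for the 8 genes in WT and for these and Ptger1 in KO, against 55.2% and 63.4% of all genes. As TPM, Ptger1 in KO overlapped. The median log2 fold change of the 10 genes was 0.35 in WT and 0.22 in KO, against -0.01 and 0.01 over all genes. The responses to IL-4 in WT and KO are each set against their own untreated libraries.

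Ptgs1, the gene of COX-1, lay at 107, 130 and 146 CPM in WT M0 and at 442, 461 and 480 CPM in WT M2. In KO it was at 139, 161 and 152 CPM in M0 and 501, 548 and 514 CPM in M2. All M2 libraries were thus above all M0 libraries, with log2 fold changes of 1.86 in WT (SE 0.10, edgeR adjusted p = 6.88e-09) and 1.79 in KO (SE 0.10, edgeR adjusted p = 8.95e-09). The response of KO minus that of WT was -0.07 (95% interval -0.35 to 0.22, edgeR adjusted p = 0.836).

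Tbxas1, the gene of thromboxane A synthase, which works on the product of the cyclooxygenases, lay at 172, 152 and 133 CPM in WT M0 and at 431, 414 and 390 CPM in WT M2. In KO it had 149, 159 and 164 CPM in M0 and 398, 389 and 382 CPM in M2. Again no M0 library reached an M2 library, and the log2 fold changes were 1.44 in WT (SE 0.08, edgeR adjusted p = 1.24e-08) and 1.31 in KO (SE 0.08, edgeR adjusted p = 2.66e-08). Markers of platelets, the other cells known for thromboxane synthase, summed to 7.66 to 13.3 TPM in WT M0 and 9.14 to 14.6 TPM in WT M2, and to 12.7 to 16.6 TPM in KO M0 and 18.2 to 20.5 TPM in KO M2. Most of this was Ppbp, and Gp9 was at 0 in all 12 libraries.

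Pla2g4a, which supplies the arachidonic acid, rose by a smaller amount, from 91.8, 99.7 and 90.1 CPM in WT M0 to 155, 167 and 151 CPM in WT M2, and from 97, 94.2 and 96.2 to 143, 161 and 158 CPM in KO. The log2 fold changes were 0.75 in WT (SE 0.06, edgeR adjusted p = 3.69e-07) and 0.68 in KO (SE 0.06, edgeR adjusted p = 6.51e-07), with no overlap of the treatments. Its CPM differed little among mice, with an SD of at most 9.78 CPM in any group.

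Ptges, the inducible synthase of prostaglandin E2, showed the largest change of the list. It lay at 46.7, 52.5 and 46.7 CPM in WT M0 and at 2.36, 3.04 and 2.3 CPM in WT M2, and in KO at 40.1, 44.5 and 31.9 CPM in M0 and 2.64, 3.23 and 2.91 CPM in M2. Every M2 library was below every M0 library by a wide margin, and the fall was 19-fold in WT (log2 -4.25, SE 0.15, edgeR adjusted p = 2.07e-10) and 13.1-fold in KO (log2 -3.72, SE 0.14, edgeR adjusted p = 2.45e-10).

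Hpgds, the synthase of prostaglandin D2, fell only slightly. It was at 156, 148 and 138 CPM in WT M0 against 127 CPM in each WT M2 library, and at 144, 137 and 151 CPM in KO M0 against 116, 119 and 130 CPM in KO M2. The treatments did not overlap in either genotype, and the log2 fold changes were -0.21 in WT (SE 0.06, edgeR adjusted p = 0.00747) and -0.24 in KO (SE 0.06, edgeR adjusted p = 0.00294). The mRNA of the E2 synthase and that of the D2 synthase thus moved by very different amounts.

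In the leukotriene branch, Alox5ap fell from 307, 338 and 427 CPM in WT M0 to 209, 216 and 270 CPM in WT M2 and from 378, 407 and 402 to 308, 290 and 297 CPM in KO. The treatments were separate in both genotypes, and the log2 fold changes were -0.63 in WT (SE 0.11, edgeR adjusted p = 0.000495) and -0.41 in KO (SE 0.11, edgeR adjusted p = 0.0079). Ltc4s, which makes the first of the cysteinyl leukotrienes, moved the other way.

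Ltc4s lay at 4.11, 5.36 and 8.33 CPM in WT M0 and 9.36, 10.6 and 12.4 CPM in WT M2, and at 6.17, 6.98 and 7 CPM in KO M0 and 17.7, 13.6 and 13.7 CPM in KO M2. All M2 libraries were above the M0 libraries of their genotype. The log2 fold changes were 0.87 in WT (SE 0.21, edgeR adjusted p = 0.00405) and 1.15 in KO (SE 0.20, edgeR adjusted p = 0.000313).

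Alox5, the 5-lipoxygenase gene, was not called for IL-4 when mice were treated as independent. Its values in WT were 1.49, 3.48 and 6.15 CPM in M0 and 0.999, 2.01 and 2.91 CPM in M2, and in KO 4.56, 8.3 and 7.25 CPM in M0 and 3.8, 5.12 and 5.09 CPM in M2. The treatments overlapped, but Alox5 was lower in M2 in each of the 6 mice, by log2 changes of -0.54, -0.77 and -1.06 in WT and -0.26, -0.69 and -0.50 in KO. Without the mouse in the model the log2 fold changes were -0.90 in WT (SE 0.47, edgeR adjusted p = 0.131) and -0.52 in KO (SE 0.39, edgeR adjusted p = 0.291). Leaving out 1 library moved the WT value between -1.30 (without the M2 library of mouse 3) and -0.35 (without the M0 library of mouse 3), and the KO value between -0.73 (without the M0 library of mouse 1) and -0.34 (without that of mouse 2). With the mouse as a replicate block the WT value was -0.87 (edgeR adjusted p = 0.00106) and the KO value -0.51 (edgeR adjusted p = 0.00373), which brought the count to 9 of 10 in each genotype, where this fit called 54.6% of all genes in WT and 58.2% in KO. Over all alternatives the adjusted p ranged from 0.00106 to 0.543 in WT and from 0.00373 to 0.584 in KO.

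Some of the listed markers of neutrophils and eosinophils, which are known to carry enzymes of the leukotriene branch, also changed with IL-4 in WT. S100a9 (log2 -0.75, edgeR adjusted p = 0.0485) and Ngp (log2 -1.28, edgeR adjusted p = 0.023), 2 of the 4 neutrophil markers tested, were lower in WT M2, and Ccr3 was higher (log2 1.15, edgeR adjusted p = 0.00364). Ccr3 was the 1 eosinophil marker tested, as Epx and Prg3 were at 0 in all libraries and Prg2 was at most 0.07 TPM. In KO, edgeR and DESeq2 called 0 of the 4 neutrophil markers and did not call Ccr3 (log2 0.58, edgeR adjusted p = 0.103), and 0 of the markers in both lists had an unadjusted p under 0.05. Their part in the changes of Alox5, Alox5ap and Ltc4s was not tested.

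Ptger1 had no single direction with IL-4. In WT its log2 changes per mouse were -1.15, 1.70 and -0.42, and the fold change over the group was -0.04 (SE 0.57, edgeR adjusted p = 0.964). In KO they were -1.36, -0.35 and -0.27, and the log2 fold change over the group was -0.72 (SE 0.74, edgeR adjusted p = 0.443).

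**Figure D2:**
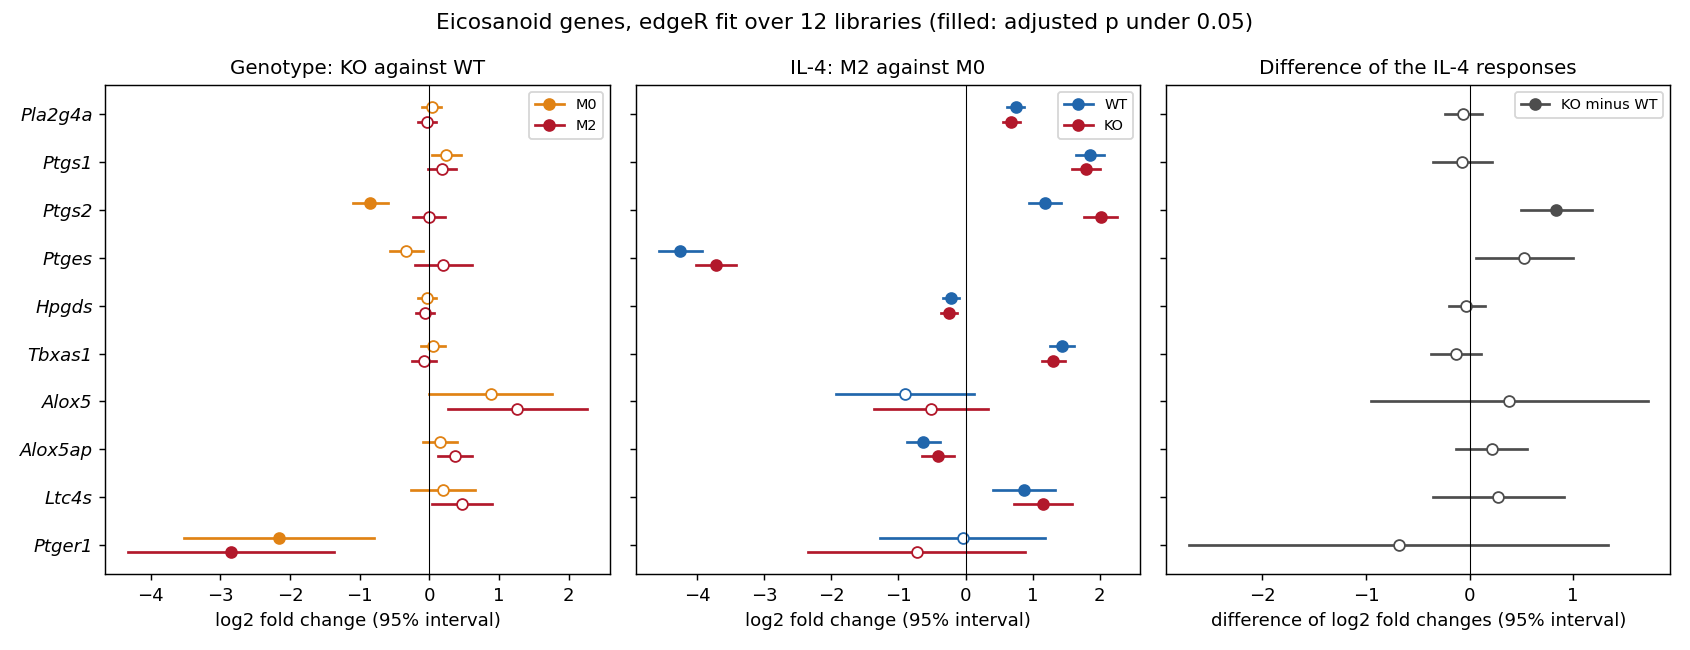
Log2 fold changes (points) with 95% intervals (lines) of the 10 genes for KO against WT, for IL-4 in each genotype, and for the difference of the IL-4 responses (KO minus WT), from the edgeR fit over 12 libraries. Filled points passed an adjusted p of 0.05, which in the genotype panel are Ptgs2 in M0 (-0.85) and Ptger1 in both treatments (-2.16 and -2.85), and in the difference panel Ptgs2 (0.84).

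KO and WT libraries differ in IGF2BP2, in Lyz2 mRNA as given above and, where a WT mouse lacked Cre, in Cre. Igf2bp3 mRNA was also lower in every KO library (at most 5.42 CPM) than in every WT library (at least 15.6 CPM). The comparison of KO with WT therefore does not isolate loss of IGF2BP2, and the part of each difference in these mRNAs was not tested. In M0 macrophages Ptgs2 and Ptger1 were lower in KO, and the other 8 genes did not pass. Of all genes tested, 9.78% were called in M0 (5.5% higher, 4.27% lower). The CPM of Ptgs2, Ptges and Ptger1, 3 of the 10, were lower in KO without overlap, as were those of 14.9% of all genes. As TPM, Ptgs2 and Ptger1 were lower without overlap and Ptges was not. The median log2 fold change was 0.04 for the list and -0.0007 for all genes. Ptgs2 is also among the migration genes that the study chose on these samples, so its direction in M0 is not independent evidence here.

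Ptgs2, the gene of the inducible COX-2, was at 11.1, 10.6 and 12.4 CPM in WT M0 and at 6.1, 6.9 and 5.89 CPM in KO M0. Each KO library was below each WT library, and the log2 fold change was -0.85 (SE 0.12, edgeR adjusted p = 0.00143). It was called in all 6 fits that left out 1 library. The files give Ptgs2 a single transcript, so its length does not change between libraries, and the antisense gene Ptgs2os had at most 1 count in a library.

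Markers of other cells also differed between these groups. Neutrophil markers summed to 54.9, 61.2 and 23.8 TPM in WT M0 and to 17.8, 19.2 and 18.4 TPM in KO M0, with 7 of 8 and 6 of 8 detected, and 3 of the 4 tested were called lower in KO. These were S100a9 (log2 -1.38, edgeR adjusted p = 0.0124), Ngp (log2 -1.82, edgeR adjusted p = 0.018) and Ltf (log2 -2.09, edgeR adjusted p = 0.00759), and S100a8 and S100a9 reached 20.1 and 24.6 TPM over all libraries. Of the other markers on the list, Ly6g was at 0 in all libraries and Elane and Mpo were at most 0.24 TPM. In M0 the WT library with the lowest sum of neutrophil markers had the highest Ptgs2. In M2 it went the other way, as the WT library with the lowest sum (14.2 TPM) had the lowest Ptgs2 (22.1 CPM). Stromal markers summed to 10.9 to 21.3 TPM in WT M0 and 3.39 to 12.6 TPM in KO M0, with 0 of 4 called by edgeR or DESeq2 and 0 at an unadjusted p under 0.05, and the eosinophil list was represented by Ccr3 (4.75 to 21.2 TPM over all libraries), with Epx and Prg3 at 0. The part of these cells in the Ptgs2 difference was not tested.

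In M2 macrophages Ptgs2 was at 24.9, 29.9 and 22.1 CPM in the WT libraries, and the KO libraries had 24.2, 27.8 and 24.5 CPM. The KO values lay within the WT range, and the log2 fold change was -0.01 with a 95% interval of -0.23 to 0.22 (edgeR adjusted p = 0.983). IL-4 raised Ptgs2 by 1.18 on the log2 scale in WT (SE 0.11, edgeR adjusted p = 1.96e-06) and by 2.02 in KO (SE 0.11, edgeR adjusted p = 1.47e-08). Per mouse the rise was 1.16, 1.5 and 0.83 in WT and 1.98, 2.0 and 2.04 in KO, so every KO mouse rose more than every WT mouse, from a lower start to overlapping levels.

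Of the list, Ptgs2 alone passed the test of the difference between the responses, for which 3.24% of all genes were called. The difference was 0.84 (SE 0.16, edgeR adjusted p = 0.015). It was called in all 12 fits without 1 library (edgeR adjusted p from 0.0134 to 0.0498) and was not called by limma on log2 TPM, where the adjusted p reached 0.0802. An exact two-sided permutation test of the 6 per-mouse changes gave p = 0.1, the smallest possible with 3 mice against 3. With the mouse as a replicate block, 1002 genes (7.8%) in place of 416 were called for the difference, and Ptgs2 was still the one member called.

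**Figure D3:**
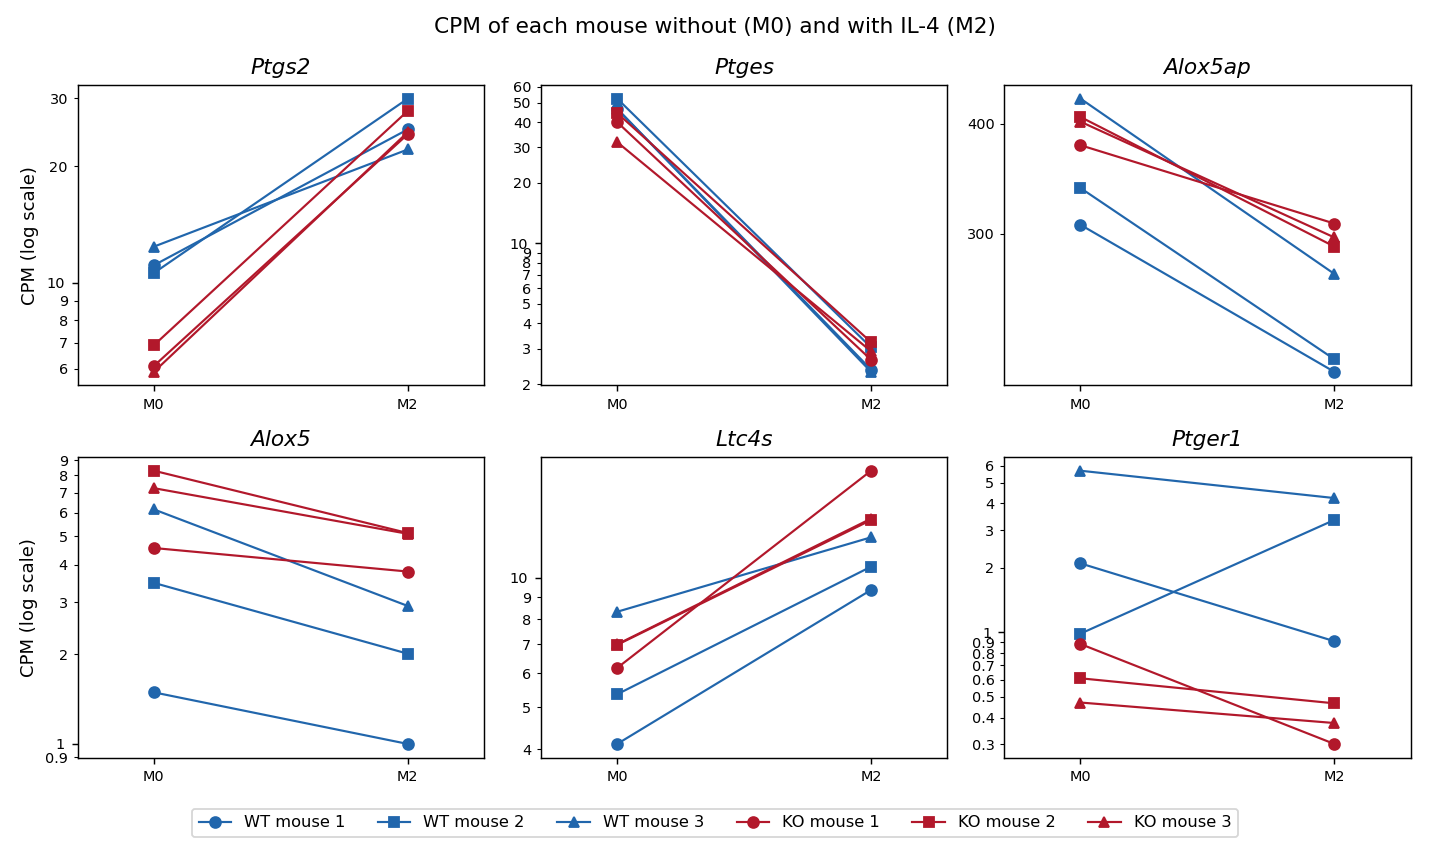
CPM (log axes) of 6 genes in each mouse without (M0) and with IL-4 (M2), where lines join the libraries of the same mouse number within a genotype. Ptgs2 starts lower in KO (5.89 to 6.9 CPM) than in WT (10.6 to 12.4 CPM) and ends in the same range, whereas Alox5, Alox5ap and Ltc4s in M2 are higher in all KO mice than in all WT mice.

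COX-2 mRNA was a small share of cyclooxygenase mRNA throughout. Of the summed TPM of Ptgs1 and Ptgs2, Ptgs2 made up 5.79%, 4.62% and 5.02% in WT M0 and 2.57%, 2.43% and 2.28% in KO M0. In M2 the WT libraries had shares of 3.2%, 3.75% and 2.72%, and those of KO were 2.89%, 2.91% and 2.75%. Thus the genotypes were separate in M0 and overlapped in M2, and the share fell with IL-4 in WT and rose in KO, without overlap of the treatments in either. As log2 ratios of Ptgs2 to Ptgs1 TPM, KO minus WT was -1.12 in M0 (exact permutation p = 0.1) and -0.17 in M2 (exact permutation p = 0.4), and M2 minus M0 was -0.71 in WT and 0.24 in KO (exact permutation p = 0.1 for each), where 0.1 is the smallest p possible.

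Ptgs1 itself was not called between the genotypes. In M0 the log2 fold change was 0.24 (95% interval 0.04 to 0.45, edgeR adjusted p = 0.127), and in M2 it was 0.18 (95% interval -0.02 to 0.38, edgeR adjusted p = 0.307). Whether the groups overlapped depended on the scale, since the CPM overlapped in M0 and were higher in all KO libraries in M2, whereas the TPM were separate in M0 (82.5 to 99.9 in WT, 104 to 122 in KO) and overlapped in M2 (321 to 337 in WT, 327 to 397 in KO). For Pla2g4a, Hpgds and Tbxas1 the CPM of KO and WT overlapped in both treatments, and so did the TPM except for Tbxas1 in M2, which was lower in KO (304 to 310 against 322 to 357 TPM). The log2 fold changes of these 3 genes lay between -0.08 and 0.05, and the widest of their 95% intervals were -0.12 to 0.22 in M0 and -0.25 to 0.09 in M2, both for Tbxas1.

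Ptges in M0 was lower in each KO library (31.9 to 44.5 CPM) than in each WT library (46.7 to 52.5 CPM), with a log2 difference of -0.33 (SE 0.11, edgeR adjusted p = 0.0754), which missed the threshold. As TPM the same libraries overlapped, at 26.9 to 39 in KO and 35.5 to 38.3 in WT. In M2 it was the reverse, since the CPM overlapped and the TPM did not, at 2.64, 3.34 and 2.81 in KO and 1.79, 2.26 and 2.08 in WT. The scales differ in the transcript length assigned to the gene, which for Ptges was 2527, 2588 and 2196 nt in WT M0 against 2171, 2122 and 2192 nt in KO M0, and 2370, 2401 and 1995 nt in WT M2 against 1710, 1767 and 1862 nt in KO M2. The assigned length was thus shorter in KO without overlap in both treatments (exact permutation p = 0.1 for each, the smallest possible), and it is an estimate over 4 transcripts that in M2 rests on 45 to 125 counts. The fall of Ptges with IL-4 gave log2 changes of -4.27, -4.08 and -4.30 in the WT mice and -3.89, -3.75 and -3.42 in the KO mice, with no overlap, and the difference of the responses was 0.53 (SE 0.22, edgeR adjusted p = 0.224).

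In M2 macrophages Ptger1 was the single member called between the genotypes, where 2.68% of all genes were called (1.21% higher, 1.46% lower). The list's median log2 fold change was 0.08, and that of all genes -0.0009. Without being called, all 3 genes of the leukotriene branch had higher CPM in each KO library than in each WT library. On the CPM scale, 13.1% of all genes were higher in KO M2 without overlap and 11.7% were lower, and of the list 4 were higher (these 3 and Ptgs1) and 1 was lower (Ptger1). This tally depended on the scale, as the TPM of Alox5 and Ptgs1 overlapped, and those without overlap were higher for Alox5ap, Ltc4s and Ptges and lower for Tbxas1 and Ptger1.

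Alox5 in M2 lay at 3.8, 5.12 and 5.09 CPM in KO and 0.999, 2.01 and 2.91 CPM in WT, a log2 fold change of 1.26 (95% interval 0.27 to 2.26, edgeR adjusted p = 0.152). As TPM these libraries overlapped, at 2.72, 4.11 and 3.31 in KO and 0.63, 2.42 and 3.33 in WT, and limma on log2(TPM + 1) gave a difference of 0.59 for Alox5. For Alox5ap the M2 values were 308, 290 and 297 CPM in KO and 209, 216 and 270 CPM in WT, with a log2 fold change of 0.37 (95% interval 0.12 to 0.61, edgeR adjusted p = 0.105). DESeq2 called this difference (adjusted p = 0.0317), and the adjusted p ranged from 0.0317 to 0.306 over all alternatives. The Ltc4s difference in M2 was 0.47 on the log2 scale (95% interval 0.04 to 0.90, edgeR adjusted p = 0.208).

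In M2 the neutrophil markers summed to 14.2 to 36.1 TPM in WT and 13.7 to 19.1 TPM in KO, with 0 of 4 called by edgeR or DESeq2 and 2 at an unadjusted p under 0.05. The eosinophil list, of which Ccr3 alone was detected in M2, summed to 9.42 to 21.2 TPM in WT and 7.09 to 9.08 TPM in KO, so that it was lower in KO without overlap. Platelet markers summed to 9.14, 14.6 and 11.5 TPM in WT M2 and 19.4, 20.5 and 18.2 TPM in KO M2, higher in KO without overlap. Most of this sum was Ppbp, with Gp9 at 0 and Gp1ba at most 0.05 TPM in all libraries. Of the 2 platelet markers tested, 0 were called by edgeR, 1 had an unadjusted p under 0.05 and 1 was called by DESeq2. Stromal markers summed to 3.18 to 10.8 TPM in KO M2 and 12.2 to 22.8 TPM in WT M2, without overlap, with 0 of 4 called by edgeR or DESeq2 and 3 at an unadjusted p under 0.05. The part of these cells in the leukotriene genes and Ptgs1 was not tested.

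In M0 the CPM and the TPM of KO and WT overlapped for each of the 3 leukotriene genes. The log2 fold changes of KO against WT were 0.88 for Alox5 (95% interval -0.00 to 1.76, edgeR adjusted p = 0.198), 0.15 for Alox5ap (95% interval -0.09 to 0.39, edgeR adjusted p = 0.445) and 0.19 for Ltc4s (95% interval -0.26 to 0.65, edgeR adjusted p = 0.616). Leaving out 1 library moved them between 0.49 and 1.44, 0.05 and 0.30, and -0.01 and 0.51. The difference of their IL-4 responses did not pass, with values of 0.38, 0.22 and 0.28 (edgeR adjusted p = 0.794, 0.515 and 0.666). Per mouse the fall of Alox5ap was smaller in KO (log2 changes of -0.30, -0.49 and -0.44) than in WT (-0.55, -0.65 and -0.66) without overlap (exact permutation p = 0.1, the smallest possible). The changes of Ptgs2 and Ptges per mouse were also separate. The share of all genes with such a separation was not computed, so it is not read as a result here.

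The WT mice differed among themselves in a recurring order. In M0 and in M2, Alox5, Alox5ap, Ltc4s and Ptgs1 were each lowest in WT mouse 1 and highest in WT mouse 3, and Tbxas1 was highest in mouse 1 and lowest in mouse 3. The SD of Alox5 in M0 was 2.34 CPM in WT and 1.93 CPM in KO, that of Alox5ap was 62 and 15.2 CPM, and that of Ltc4s was 2.17 and 0.471 CPM. For Ltc4s in M2 the SD was the larger one in KO (2.37 CPM, against 1.54 CPM in WT). Neutrophil markers were lowest in WT mouse 3 in both treatments, at 23.8 TPM in M0 and 14.2 TPM in M2, and macrophage markers summed to 3772, 3415 and 3142 TPM in the WT M0 libraries. Platelet markers were lowest in WT mouse 1 in both treatments, at 7.66, 12.4 and 13.3 TPM in M0 and 9.14, 14.6 and 11.5 TPM in M2. The part of these markers in the spread was not tested.

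Of the list, Ptger1 showed the largest differences between the genotypes, with the widest intervals. It lay at 2.1, 0.986 and 5.69 CPM in WT M0 and 0.882, 0.61 and 0.47 CPM in KO M0, and at 0.909, 3.35 and 4.24 CPM in WT M2 and 0.301, 0.466 and 0.377 CPM in KO M2. All KO libraries were below all WT libraries of the same treatment, on 17 to 24 counts in KO M0 and 8 to 18 counts in KO M2. The log2 fold change was -2.16 in M0 (SE 0.63, edgeR adjusted p = 0.0484) and -2.85 in M2 (SE 0.68, edgeR adjusted p = 0.0477). In each treatment the call was kept in 1 of the 6 fits without 1 library, with edgeR adjusted p from 0.0315 to 0.161 in M0, where WT mouse 2 was the one left out when the call was kept, and from 0.0245 to 0.16 in M2, where it was WT mouse 1. The log2 fold change then lay between -2.57 and -1.26 in M0 and between -3.28 and -2.43 in M2. Limma on log2 TPM called it in neither treatment. The library kit keeps the strand, but the strand setting of the counting is not given in the sources used here, so at counts this low reads from the opposite strand may contribute, and the Ptger1 values are uncertain for that reason too.

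The genes most like the members called between the genotypes were sought by Pearson correlation of log2 CPM over the 12 libraries, among 12845 genes, where libraries of the same group share their genotype and treatment. For Ptgs2 these were Utp25 (r = 0.989), Aen (0.984) and Rsl1d1 (0.984), which in WT M0, KO M0, WT M2 and KO M2 averaged 25.7, 20.4, 41 and 39.5 CPM for Utp25, 61.3, 48.6, 92 and 90.9 CPM for Aen, and 130, 118, 154 and 149 CPM for Rsl1d1. In M0 the means of all 3 were lower in KO than in WT, and in both genotypes they were higher in M2 than in M0, by smaller ratios than for Ptgs2.

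For Ptger1 the most alike were Gm5148 (r = 0.975, chromosome 3), Gm17494 (0.961, chromosome 3) and Gm20721 (0.957, chromosome 2), all on other chromosomes. Gm5148 lay at 3.23, 1.94 and 13.9 CPM in WT M0 and 1.27, 6.39 and 8.49 CPM in WT M2, against 0.581 to 0.955 CPM in KO M0 and 0.259 to 0.565 CPM in KO M2. Gm17494 lay at 4.98, 3.09 and 27 CPM in WT M0 and 2.54, 6.34 and 11.2 CPM in WT M2. These genes shared with Ptger1 the order of the WT libraries, in which mouse 3 was highest in both treatments and mouse 1 was above mouse 2 in M0 and below it in M2.

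The rest of the pathway was described with 6 lists of other genes, of which 44 of 67 passed the filter. Their counts with IL-4 stand against 24.9% higher and 25.1% lower among all genes in WT, and 26.8% and 26% in KO, with medians of -0.01 and 0.01. Among enzymes that release arachidonic acid, 6 of 10 rose and 2 fell with IL-4 in WT, and 6 rose and 1 fell in KO. Pla2g5, a secreted phospholipase A2, rose most, with log2 fold changes of 2.23 in WT (edgeR adjusted p = 1.65e-08) and 2.07 in KO (edgeR adjusted p = 4.72e-08). It was lower in KO in both treatments, at 1.95 to 3.75 TPM against 3.84 to 5.37 TPM in M0 and at 9.3 to 12.6 against 18.4 to 25.3 TPM in M2, so that the groups did not overlap. The log2 fold changes of KO against WT were -0.77 in M0 (SE 0.14, edgeR adjusted p = 0.00619) and -0.93 in M2 (SE 0.12, edgeR adjusted p = 0.00352). Pla2g15, Daglb and Pla2g12a followed in WT with log2 fold changes of 1.52, 1.38 and 1.18 for IL-4. The list's median log2 fold change with IL-4 was 0.70 in WT and 0.77 in KO. Pla2g4c fell by 1.24 on the log2 scale in KO (edgeR adjusted p = 0.00161).

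Receptors other than EP1 gave some of the largest responses. Of 8 tested, 4 rose and 2 fell with IL-4 in WT, and 4 rose and 3 fell in KO. Ltb4r1, which encodes the leukotriene B4 receptor BLT1, went from 0.18 to 0.32 TPM in WT M0 to 7.56 to 11.2 TPM in WT M2, with log2 fold changes of 5.21 in WT (SE 0.34, edgeR adjusted p = 5.64e-08) and 5.83 in KO (SE 0.36, edgeR adjusted p = 3.41e-08), on 0 to 7 counts per M0 library. It passed the filter only through its M2 libraries (126 to 228 counts), a selection that favours a rise. The prostaglandin E2 receptors moved apart, as Ptger2 (EP2) rose by a log2 of 1.66 in WT (edgeR adjusted p = 6.09e-08) and Ptger4 (EP4) fell by 1.44 on the log2 scale in WT (edgeR adjusted p = 4.06e-08). Fpr2, a formyl peptide receptor that also binds lipoxin, fell by 3.04 on the log2 scale in WT and by 3.66 in KO, on 3 to 14 counts per M2 library. Between the genotypes in M0, Cysltr1, a receptor for cysteinyl leukotrienes, was higher in KO (25.7 to 28.1 against 17.9 to 20.6 TPM, log2 0.54, SE 0.11, edgeR adjusted p = 0.00845). Ptger4 was lower in KO M0 (13.1 to 14.6 against 19.3 to 19.6 TPM, log2 -0.47, SE 0.08, edgeR adjusted p = 0.0052), and in M2 edgeR called 0 of the 8 between the genotypes, with 1 at an unadjusted p under 0.05 and 1 called by DESeq2. The list's median log2 fold change with IL-4 was 0.32 in WT and 0.69 in KO.

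Of the genes for arachidonic acid synthesis and the remodelling of phospholipids, 7 of 11 fell and 1 rose with IL-4 in WT (25.1% and 24.9% of all genes), and 9 fell and 1 rose in KO (26% and 26.8% of all genes). The medians were -0.44 and -0.63, against -0.01 and 0.01 over all genes. The one that rose was Mboat2, a lysophospholipid acyltransferase gene, with log2 fold changes of 5.61 in WT (SE 0.34, edgeR adjusted p = 3.15e-08) and 5.07 in KO (SE 0.31, edgeR adjusted p = 2.66e-08), on 1 to 11 counts per M0 library. It passed the filter through its M2 libraries (127 to 282 counts), a selection that favours a rise. The data do not show which fatty acid its product transfers. Fads2, a fatty acid desaturase gene, Acsl1 and Lpcat2 fell in WT by 1.13, 1.08 and 1.06 on the log2 scale. In M0 Acsl1 was lower in KO (log2 -0.44, edgeR adjusted p = 0.00423) and Elovl5, a fatty acid elongase gene, was higher (log2 0.20, edgeR adjusted p = 0.0206). The IL-4 response of Acsl1 differed between the genotypes by 0.45 (SE 0.11, edgeR adjusted p = 0.0424).

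Among other lipoxygenase pathway enzymes, 1 of 4 tested rose and 1 fell in each genotype, with median log2 fold changes of -0.10 in WT and -0.08 in KO. Ggt5, whose product converts leukotriene C4 to D4, rose by a log2 of 2.12 in WT (edgeR adjusted p = 7.4e-08) and 2.58 in KO (edgeR adjusted p = 6.5e-09) and was higher in KO in M2 (log2 0.61, SE 0.12, edgeR adjusted p = 0.0254). Dpep2, which encodes a dipeptidase that cleaves leukotriene D4, fell by 0.39 in WT and 0.37 in KO on the log2 scale. Of the other prostanoid synthases, 2 of 5 fell in WT (Ptges3 by 0.14 and Akr1b3 by 0.11 on the log2 scale) and 1 of 5 rose in KO (Ptges2, log2 0.24), with medians of -0.11 and 0.01.

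For transport and breakdown, 1 of 6 rose and 3 fell in WT, and 2 rose and 3 fell in KO, with medians of -0.21 and -0.32. The exporters Abcc4, which carries prostaglandins, and Abcc1, which carries leukotriene C4, fell by 0.79 and 0.64 on the log2 scale in WT and by 0.80 and 0.67 in KO. Ptgr1, a prostaglandin reductase gene, fell by 0.46 in WT and 0.47 in KO on the log2 scale. Zadh2, another prostaglandin reductase gene, was lower in KO M0 (log2 -0.27, SE 0.06, edgeR adjusted p = 0.0212). Of the pathway genes named here, Daglb, Dpep2, Cysltr1, Ptger4, Fpr2 and Lpcat2 overlap another protein-coding gene, so that their counts are less certain.

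**Figure D4:**
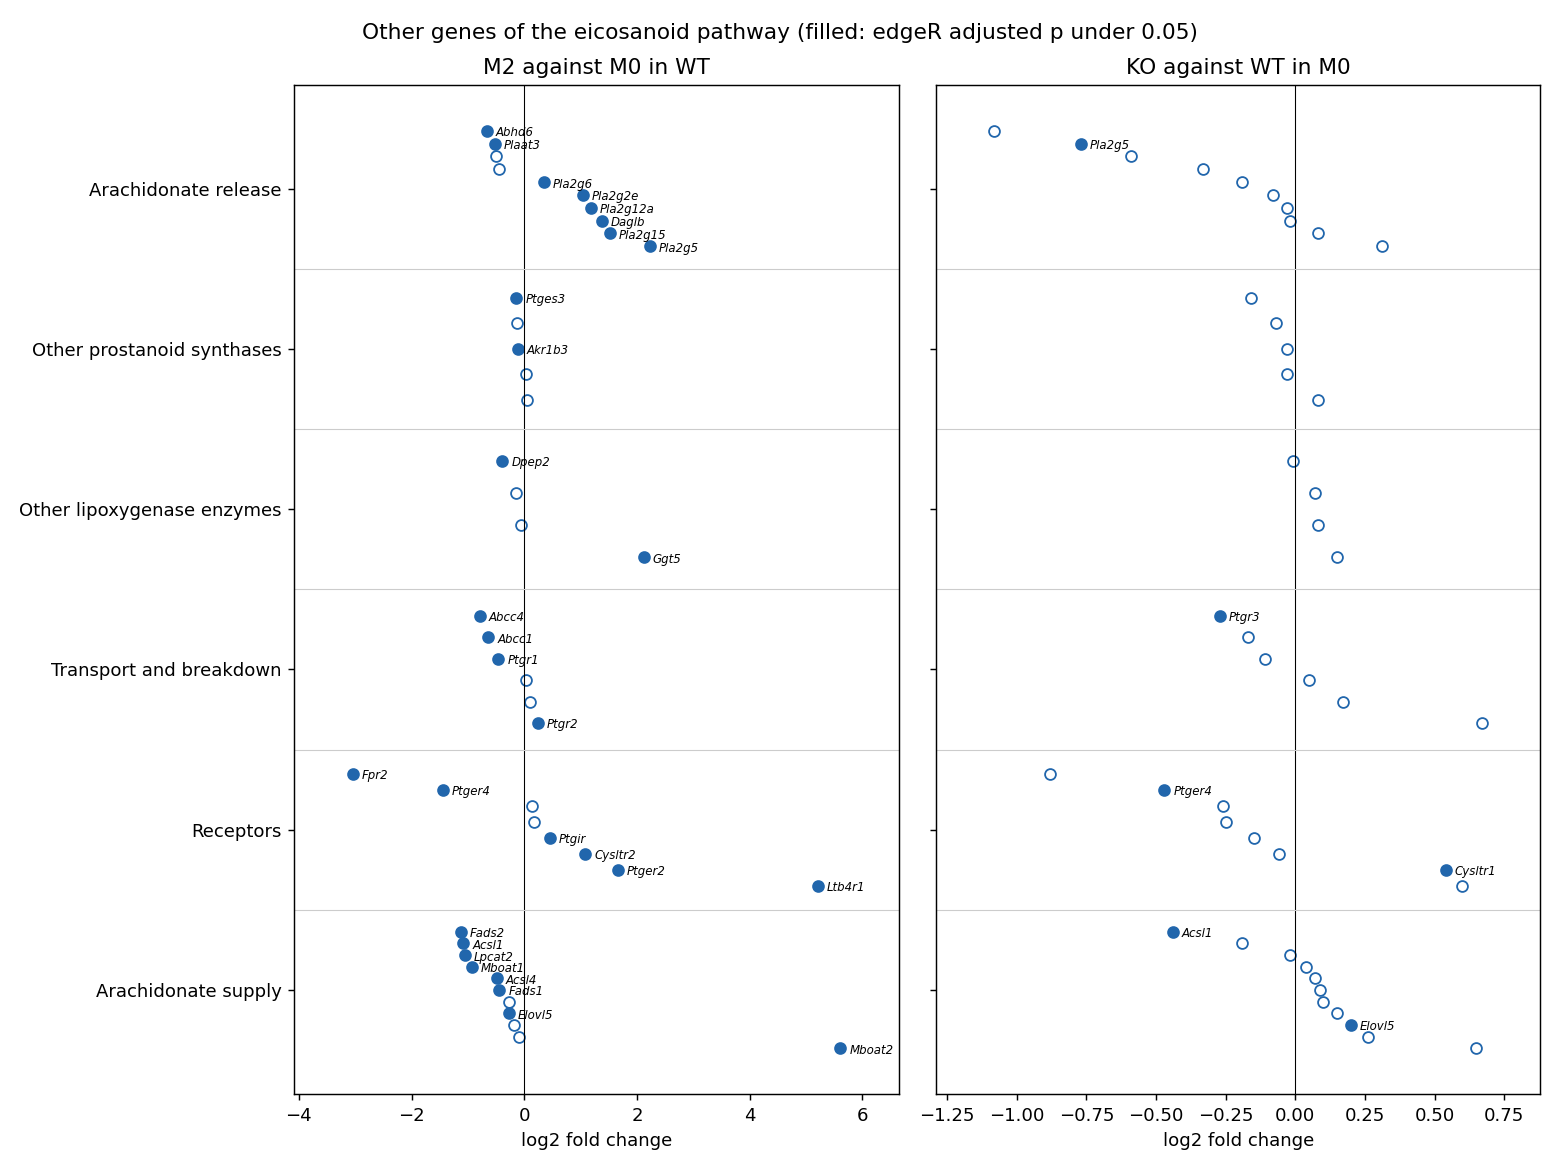
Log2 fold changes of the other eicosanoid pathway genes that passed the filter, grouped by role, for IL-4 in WT and for KO against WT in M0, with 1 point per gene and filled, named points where the edgeR adjusted p was under 0.05. With IL-4 the points span -3.04 (Fpr2) to 5.61 (Mboat2), and between the genotypes the called genes lie between -0.77 (Pla2g5) and 0.54 (Cysltr1). Ptgr3 is the gene listed as Zadh2.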

How the data were processed

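Poly(A) RNA libraries (strand-preserving kit, 1 × 75 nt) were analysed from the tables that the authors deposited. Per the labels and the study's methods, reads were checked with FastQC 0.11.2, processed with the Grape-nf pipeline under Nextflow, aligned to GRCm38 and quantified per gene. The tool for the quantification within the pipeline and its strand setting are not given in the sources used here. The authors deposited, for each library, expected counts (estimated read counts, a read matching several genes being divided among them), TPM (scaled by transcript length and library) as maximum-likelihood and posterior mean estimates, and gene lengths in nucleotides. The deposited DESeq2 1.40.2 tables hold the authors' comparisons and served only for gene symbols. With GENCODE M21, 37570 of 38887 genes had a symbol. The tables hold 0 genes of the mitochondrial genome.

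Expected counts were rounded and fitted with edgeR 4.0.16 in R 4.3.3 (filterByExpr by group, TMM, quasi-likelihood F test, all 12 libraries, 1 coefficient per group, biological coefficient of variation 8.08%). P-values were adjusted by the Benjamini-Hochberg method over 12846 genes and called under 0.05. Each standard error was derived from the F statistic of its fold change. Alternatives were DESeq2 1.42.0, RLE scaling, no filter, a filter of 1 CPM in 3 libraries, limma-trend 3.58.1 on TPM in log2 with 1 or 0.1 added, only the 6 libraries of a comparison, a replicate block, and leaving out each library. The fits were tested on simulated data. Log2 ratios of Ptgs2 to Ptgs1 TPM, lengths and changes per mouse were compared with exact two-sided permutation tests (numpy 2.4.6). Likeness was the Pearson correlation of log2 CPM with a prior count of 2.

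Groups came from the labels. Deviations of M0 and M2 libraries with the same number from their group means correlated at 0.331, 0.103 and 0.364 in WT and 0.166, 0.16 and 0.209 in KO, so numbers were taken to pair the mice within a genotype. Between WT and KO they correlated at -0.068 to 0.04, so numbers did not pair the genotypes. The members, the pathway lists and the marker lists were chosen with earlier results of these data known. Named besides the members were, per pathway list and comparison, up to 4 called genes with the largest change, and for each member called between genotypes or for the difference the 3 most correlated genes. A further check of the Ptger1 counts is not reported here.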

Additional observations from a re-analysis of the deposited data

Results flagged for a closer look

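Ptgs2 was the one result among the 10 genes whose IL-4 response differed between the genotypes by a test of the difference itself. The log2 fold change with IL-4 was larger in KO than in WT by 0.84 (SE 0.16, edgeR adjusted p = 0.015), and the rise was larger in each of the 3 KO mice (1.98, 2.0 and 2.04) than in each of the 3 WT mice (1.16, 1.5 and 0.83). Over the alternatives the adjusted p ranged from 0.000219 to 0.0802. The groups differed in M0 (10.6 to 12.4 CPM in WT, 5.89 to 6.9 CPM in KO) and overlapped in M2 (22.1 to 29.9 and 24.2 to 27.8 CPM).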

How the results depend on the processing

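Of 750 values of single genes under the alternatives, 699 kept their direction and their side of the threshold. The number of genes called for KO against WT in M0 was 752 and 700 with limma on log2(TPM + 1) and log2(TPM + 0.1) in place of 1256, and 461 to 1461 without 1 library, and members called were 1 with either limma fit and with only the 6 libraries (2 in edgeR), and 1 to 3 without 1 library. In M2 the genes called were 713 with DESeq2, 70 and 57 with limma and 165 with only the 6 libraries (344 in edgeR), and 25 to 298 without 1 library, and the members called were 2 with DESeq2, without a filter and with the replicate block, 0 with either limma fit, and 0 to 1 without 1 library. For the difference of the responses the genes called were 816 with DESeq2, 113 with either limma fit, 1002 with the replicate block and 183 to 643 without 1 library (416 in edgeR), and limma called 0 members. For these, the cause was not tested. The lowest counts came without WT mouse 2 in M0 (461), KO mouse 3 in M2 (25) and the M0 library of WT mouse 2 for the difference (183), and the highest for the difference without the M0 library of WT mouse 1 (643). Members gained a call without WT mouse 3 in M0 (Ptgs1 and Alox5), KO mouse 2 in M0 (Ptges), WT mouse 3 in M2 (Alox5ap) and, for IL-4, the M0 library of WT mouse 1 (Alox5).

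With the replicate number as a block between the genotypes, whose numbers do not pair mice, Ptges (edgeR adjusted p = 0.0179) and Alox5 (0.0378) were called in M0, Ptger1 was not (0.0609), and Alox5 was called in M2 (0.0399); the block changed no other call of a member apart from Alox5 with IL-4. Signs turned for Ptgs2 in M2 without a filter (9e-05, -0.01 in edgeR), for Ptger1 with IL-4 in WT under the block (0.03, -0.04 in edgeR) and for the Alox5 difference under limma (-0.16 and -0.07, 0.38 in edgeR). Leaving out 1 library gave ranges across 0 for KO against WT in M0 for Hpgds (-0.07 to 0.01), Tbxas1 (-0.04 to 0.15) and Ltc4s (-0.01 to 0.51), in M2 for Pla2g4a (-0.07 to 0.02) and Ptgs2 (-0.10 to 0.12), for Ptger1 with IL-4 in WT (-0.46 to 0.86), and for the differences of Ptgs1 (-0.18 to 0.05), Hpgds (-0.08 to 0.01), Alox5 (-0.18 to 0.78) and Ltc4s (-0.04 to 0.49). Ptger1 had the lowest depth of the list (8 to 18 counts in KO M2).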
